A study of Mus musculus with 24 samples.

Results

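The Rhox (reproductive homeobox) genes encode homeodomain transcription factors and lie in a cluster on the X chromosome. The genes described here were Rhox1, Rhox5, Rhox8, Rhox9, Rhox10 and Rhox13, chosen by gene name, and all 6 were present in both deposited expression tables, among 23333 genes listed in either. The tables hold 19 Rhox genes or pseudogenes each, so 13 further entries of the cluster were used as a list for comparison. Rhox2e, Rhox11, Rhox12 and the Rhox3 and Rhox4 genes were not analysed here.

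RNA-seq was done on spermatogonia (SPG) from mouse testes at postnatal day 7 (P7). THY1+ undifferentiated SPG (uSPG) and KIT+ differentiating SPG (dSPG) were sorted with antibodies on magnetic beads, and testes of 3 mice were pooled for an isolation. In the Zbtb16 set, mice homozygous for the luxoid allele (Zbtb16 lu/lu, Zbtb16-null) were compared with WT littermates, for which the study's methods also allow heterozygotes. In the Sox3 set, mice with a floxed Sox3 allele deleted in germ cells by Ddx4-Cre (Sox3 cKO) were compared with WT mice. The study's methods give C57BL/6J as the background of its mice. Both targeted genes encode transcription factors found in uSPG. Ddx4-Cre acts in germ cells, so Sox3 in somatic cells of the sorted fractions was not targeted. Each set had 4 groups of 3 libraries, 24 libraries in all. The study calls its RNA-seq replicates biologically independent, while the labels do not say which animals or isolations each library came from.

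The sorting markers Thy1 and Kit followed the labels in the Zbtb16 set and in the Sox3 cKO libraries. In the WT libraries of the Sox3 set they ran the other way. Thy1 averaged 0.240 FPKM where the label says THY1+ and 3.83 FPKM where it says KIT+, and Kit averaged 57.9 and 15.3 FPKM in the same groups. Some other marker lists did the same, with summed medians (WT labelled THY1+ first, then WT labelled KIT+) of 6.61 and 809 FPKM for macrophages, 62.8 and 187 FPKM for undifferentiated spermatogonia and 1290 and 83.9 FPKM for Leydig cells. As a ratio, each of these sums was closer to that of the cKO fraction of the other label. Not all lists followed this in both WT groups. The Sertoli cell sum of WT labelled THY1+ (53.5 FPKM) was closer to cKO THY1+ (40.8 FPKM) than to cKO KIT+ (114.6 FPKM). That of WT labelled KIT+ (32.9 FPKM) was also closer to cKO THY1+. The differentiating spermatogonia sum of WT labelled KIT+ (239.9 FPKM) was closer to cKO KIT+ (261.0 FPKM) than to cKO THY1+ (185.8 FPKM). That of WT labelled THY1+ (385.2 FPKM) was also closer to cKO KIT+. Both lists thus ran against the labels between the WT groups. These libraries were not regrouped and are called WT labelled THY1+ and WT labelled KIT+. FPKM scales the reads of a gene to its length and to the library's depth, so levels of different genes can be set side by side within a table. The tables were normalized separately. Zbtb16 itself averaged 52.1 FPKM in WT and 17.1 FPKM in null THY1+ uSPG, and Sox3 was at most 0.0434 FPKM in cKO THY1+ and 0.0820 FPKM in cKO KIT+ libraries. Estimated depth was 25.93 to 35.16 M reads in the Zbtb16 set. It was 28.25 to 31.87 M reads for replicate 1 and 11.01 to 14.92 M for replicates 2 and 3 of the Sox3 set.

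In the testis, Rhox genes are expressed in both germ cells and the supporting somatic cells. Rhox10 is a germ cell gene needed for gonocytes to become spermatogonial stem cells, and Rhox13 is a germ cell gene of the embryonic and postnatal gonad. Rhox5, also named Pem, is the founding member and is known as an androgen-responsive gene of Sertoli cells, the nurse cells of the seminiferous tubule. Rhox8 is also known from Sertoli cells, and Rhox9 from placenta and germ cells.

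On build GRCm38, the cluster spans 37213804 to 38306028 of chromosome X. Rhox1 (ENSMUSG00000071773) lies first, at 37213804 to 37222258 on the minus strand. Rhox5 (ENSMUSG00000095180) lies at 37804842 to 37808876 on the plus strand, Rhox8 at 37874778 to 37878944 and Rhox9 at 37899097 to 37901770, both on the minus strand. Rhox10 (ENSMUSG00000053909) and Rhox13 (ENSMUSG00000050197) are close to the other end, at 38066475 to 38071691 and 38121219 to 38129967, both on the plus strand.

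Sequences before the transcription start were available for 4 of the 6 genes, but not for Rhox8 and Rhox9. They are shown because SOX3, the factor removed in the Sox3 set, belongs to a family that binds AACAAT-type sites. They are the 250 bases upstream of the RefSeq start, 5′ to 3′ on the strand of the gene (RefSeq, GRCm38.p6). Capitals mark AACAAT or its reverse complement ATTGTT. The windows are chrX:37222259-37222508 (minus strand) for Rhox1, chrX:37754358-37754607 (plus) for Rhox5, chrX:38066225-38066474 (plus) for Rhox10 and chrX:38120590-38120839 (plus) for Rhox13. The RefSeq start of Rhox5 lies 50.2 kb before the gene start of the GENCODE annotation, so its window is that of a distant start.
Rhox1: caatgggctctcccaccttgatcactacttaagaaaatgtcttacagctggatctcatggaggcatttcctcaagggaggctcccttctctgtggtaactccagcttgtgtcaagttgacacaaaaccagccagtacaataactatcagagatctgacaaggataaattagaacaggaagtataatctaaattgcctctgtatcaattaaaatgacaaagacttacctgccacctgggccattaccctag
Rhox5: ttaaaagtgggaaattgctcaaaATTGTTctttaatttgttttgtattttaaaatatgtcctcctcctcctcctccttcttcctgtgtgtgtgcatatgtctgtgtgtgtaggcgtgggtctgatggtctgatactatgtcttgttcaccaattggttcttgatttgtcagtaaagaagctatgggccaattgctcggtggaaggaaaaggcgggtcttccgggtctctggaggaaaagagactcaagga
Rhox10: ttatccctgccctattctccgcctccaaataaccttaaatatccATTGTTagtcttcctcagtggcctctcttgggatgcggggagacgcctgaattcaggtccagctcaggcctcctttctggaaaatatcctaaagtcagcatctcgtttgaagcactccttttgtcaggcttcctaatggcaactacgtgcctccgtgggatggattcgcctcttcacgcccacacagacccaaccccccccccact
Rhox13: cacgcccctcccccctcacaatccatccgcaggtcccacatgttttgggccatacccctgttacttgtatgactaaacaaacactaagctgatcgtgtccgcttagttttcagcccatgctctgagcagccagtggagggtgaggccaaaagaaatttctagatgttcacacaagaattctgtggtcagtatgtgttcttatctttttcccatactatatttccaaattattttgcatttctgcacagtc
The motif was found once in the window of Rhox10 and once in that of Rhox5, and not in the windows of Rhox1 and Rhox13. Of all 32851 promoter windows of this length in the RefSeq table, 9.42% held it on either strand. The windows held 0 (Rhox1), 4 (Rhox5), 8 (Rhox10) and 4 (Rhox13) CG dinucleotides, against a median of 6 over all windows. A match is a description of these letters and not a binding site.

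The 6 genes fell into 3 ranges of expression. Rhox10 and Rhox13 were the most abundant, at 9.19 to 47.9 and 13.2 to 71.2 FPKM over the 24 libraries. Rhox1 and Rhox5 were intermediate, at 1.44 to 8.56 and 1.12 to 6.40 FPKM. Rhox8 reached at most 1.35 FPKM and Rhox9 at most 0.354 FPKM, which for Rhox9 is an estimated 28 reads or fewer. In the plot of FPKM by library, the groups of the 4 higher genes stand apart more often than those of Rhox8 and Rhox9, which overlap in most comparisons. How many of all genes have groups that stand apart was not counted, here or below.

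**Figure D1:**
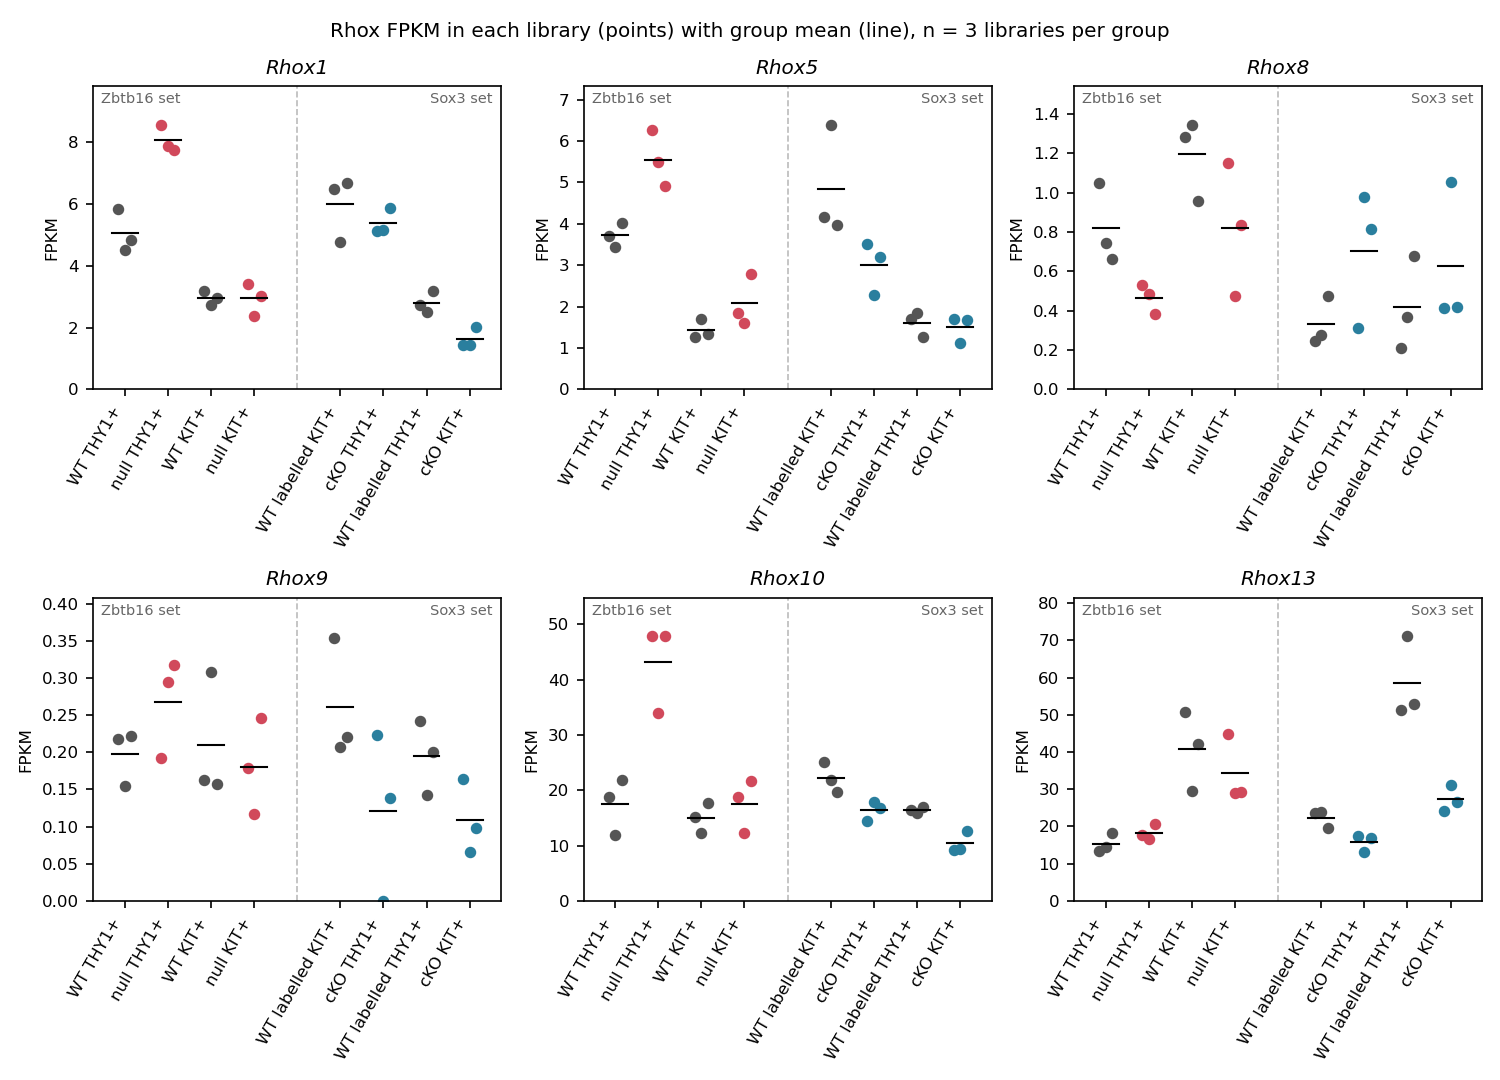
FPKM (linear axes from 0) of the 6 Rhox genes in every library of the Zbtb16 set (left of the dashed line) and the Sox3 set (right). Points are libraries, black lines are means of 3, grey marks WT, red Zbtb16-null and blue Sox3 cKO, and Sox3-set groups with like Thy1 and Kit levels stand side by side. Rhox10 is highest in the 3 null THY1+ libraries (33.9 to 47.9 FPKM), and Rhox13 in the WT libraries labelled THY1+ of the Sox3 set (51.2 to 71.2 FPKM).

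Rhox10 and Rhox1 were higher in Zbtb16-null than in WT THY1+ uSPG. Genes were called where limma's p, adjusted by Benjamini-Hochberg over all genes tested, was 0.05 or less and the change was 1.5-fold or more. Fold changes are on the log2(FPKM + 0.1) scale. In null against WT THY1+ uSPG, 2 of the 6 genes were calls and both were higher, where 3.98% of 22374 genes were calls in either direction and 2.71% were calls with higher values. The median log2 fold change of the 6 was 0.43, against -0.03 over all genes tested. In KIT+ dSPG, 0 of the 6 were calls by limma, where 0.259% of all genes were. Rhox5 was the 1 member with an unadjusted p under 0.05, as were 3863 of all genes. The comparisons of a set share libraries, so they are not independent of each other. The median of the 6 was -0.08 there, against 0.01 over all genes. The genotype by fraction interaction, the log2 change in KIT+ less that in THY1+, gave 0 calls among the 6 by limma, where 0.0313% of all genes were calls. Rhox1 and Rhox10 had an unadjusted p under 0.05, as did 5014 of all genes.

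Between fractions, 3 of the 6 genes were calls in WT of the Zbtb16 set (background 21.2%) and 4 in the null (29.2%). Rhox1 and Rhox5 were lower and Rhox13 was higher in KIT+ dSPG in both genotypes, and Rhox10 was lower in the null. In the Sox3 set, 4 of the 6 were calls between the cKO fractions (22.7%), with the same directions. The WT libraries as labelled gave 3 calls (19.7%) in the opposite directions, Rhox1 and Rhox5 higher and Rhox13 lower in the libraries labelled KIT+.

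Rhox13 was lower in Sox3 cKO than in WT libraries. Averaged over both fractions, which gives the same value if the WT groups are exchanged, 1 of the 6 genes was a call, Rhox13, where 10.3% of 21212 genes were calls and 2.83% were calls with lower values. Rhox10 and Rhox1 passed the adjusted p but not the 1.5-fold limit. The median log2 fold change of the 6 was -0.50, against 0.02 over all genes. As labelled, 3 of the 6 were calls in THY1+ (29.1%) and 3 in KIT+ (25.1%), but these comparisons set libraries with unlike sorting markers against each other. Calls over all genes numbered 6166 for the groups both labelled THY1+ and 15 for cKO THY1+ against WT labelled KIT+. Between the groups with like markers, 0 of the 6 were calls by limma for cKO THY1+ against WT labelled KIT+ (0.0707%), where 3 of the 6 and 2793 of all genes had an unadjusted p under 0.05. For cKO KIT+ against WT labelled THY1+, 3 of the 6 were calls and all were lower (17.0% of genes called, 4.57% lower).

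**Figure D2:**
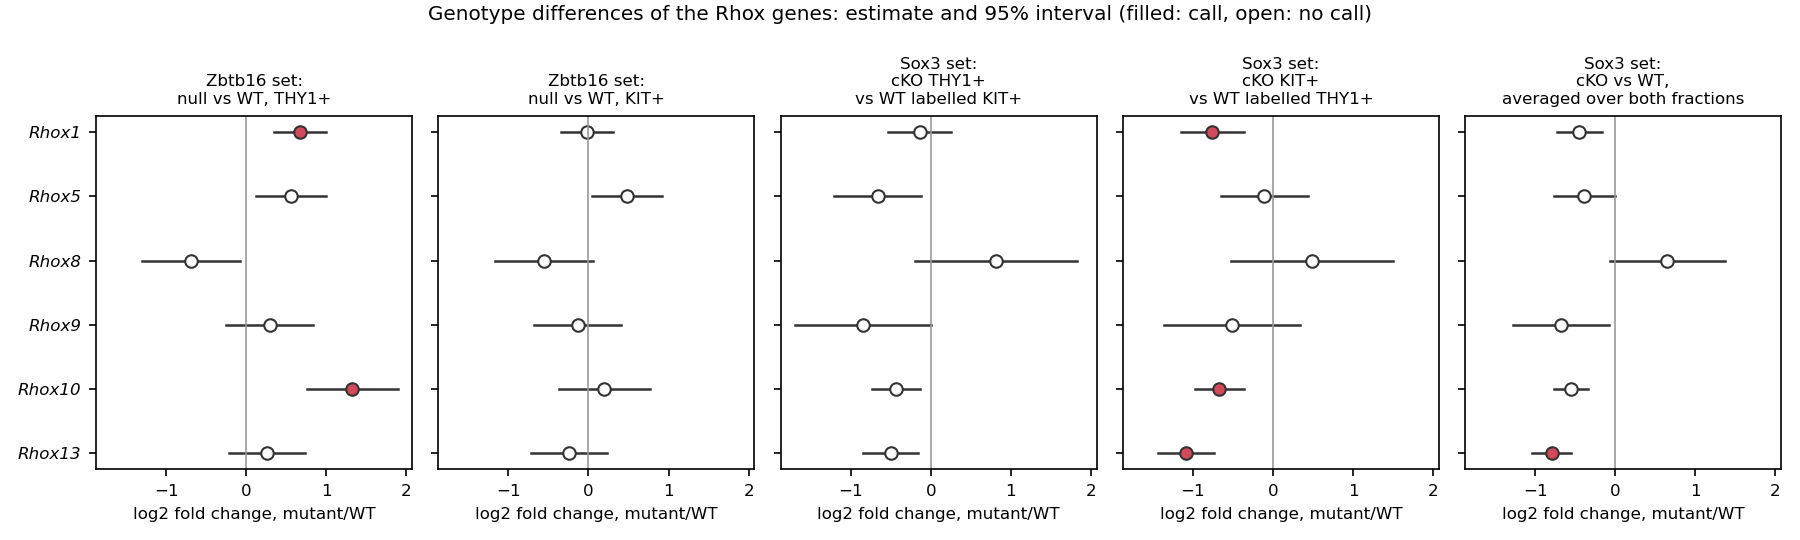
Log2 fold changes (mutant over WT, on the log2(FPKM + 0.1) scale) of the 6 genes in 5 comparisons, with 95% intervals from limma. Filled points are calls and open points are not. Rhox10 and Rhox1 lie above 0 in null THY1+ uSPG, and Rhox13 lies below 0 in the 3 Sox3 comparisons, as a call in 2 of them.

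Rhox10, the stem cell factor, had the largest genotype difference of the 6 genes in the Zbtb16 set. It was at 18.7, 11.95 and 21.9 FPKM in the 3 WT THY1+ libraries and at 47.9, 33.9 and 47.8 FPKM in the null THY1+ libraries. Among KIT+ libraries, Rhox10 was at 15.2, 12.3 and 17.7 FPKM in WT and at 18.8, 12.2 and 21.6 FPKM in the null. Every null THY1+ library lay above every other library of the set, and the other 3 groups overlapped. In THY1+ uSPG the mean rose from 17.5 ± 5.08 to 43.2 ± 8.05 FPKM (SD, n = 3 each), which limma put at 1.32 on the log2 scale (SE 0.26, 95% interval 0.76 to 1.89, adjusted p = 0.0172), or 2.50-fold. The change in KIT+ dSPG was 0.20 (95% interval -0.37 to 0.76, adjusted p = 0.723), and the interaction was -1.13 (SE 0.37, adjusted p = 0.124). The call depended on single libraries. It was lost without WT THY1+ replicate 1 (1.39, adjusted p = 0.0506), WT THY1+ replicate 2 (1.07, 0.0613), null THY1+ replicate 1 (1.24, 0.0805) or null THY1+ replicate 3 (1.24, 0.0692). Leaving out these same libraries also took the calls over all genes from 890 to 345, 362, 296 and 373, in that order.

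The fraction difference of Rhox10 was small in WT (-0.19, adjusted p = 0.629) and a call in the null (-1.32, SE 0.26, adjusted p = 0.00199). Among Sox3-set libraries, Rhox10 was at 25.1, 21.8 and 19.8 FPKM in WT labelled KIT+ and at 14.5, 17.8 and 16.9 FPKM in cKO THY1+, groups with like markers. It was at 16.5, 15.9 and 17.0 FPKM in WT labelled THY1+ and at 9.19, 9.42 and 12.6 FPKM in cKO KIT+. In both of these pairs every cKO library was below every WT library. WT labelled KIT+ was highest and cKO KIT+ lowest, and the groups between them, cKO THY1+ and WT labelled THY1+, did not differ beyond their spread. The differences were -0.43 (SE 0.14, adjusted p = 0.276) for the first pair and -0.67 (SE 0.14, adjusted p = 0.00707) for the second. Averaged over both fractions the difference was -0.55 (SE 0.10, adjusted p = 0.00391), a 1.47-fold change and so under the limit for a call. It became a call without WT labelled KIT+ replicate 3 (-0.59) or cKO KIT+ replicate 3 (-0.62). With replicates 2 and 3 alone, the difference in the second pair was no call (-0.59, adjusted p = 0.0771). As labelled, it was -0.01 in THY1+ and -1.09 in KIT+ (adjusted p = 0.964 and 0.000115). Within the cKO, Rhox10 was lower in KIT+ dSPG (-0.66, adjusted p = 0.00410), and this fell to 1.49-fold, under the limit, without cKO KIT+ replicate 1 (-0.58, adjusted p = 0.0193).

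Rhox13, the other abundant germ cell gene, ran opposite to Rhox1 and Rhox5 between fractions. In the Zbtb16 set it was at 13.4, 14.4 and 18.4 FPKM in WT THY1+ and at 17.6, 16.7 and 20.8 FPKM in null THY1+ uSPG. Rhox13 in KIT+ dSPG was at 50.7, 29.6 and 42.1 FPKM in WT and at 45.0, 29.0 and 29.2 FPKM in the null. All 6 KIT+ libraries lay above all 6 THY1+ libraries, and the genotypes overlapped within each fraction. Rhox13 rose in KIT+ dSPG by 1.38 (SE 0.22, adjusted p = 0.000738) in WT, or 2.61-fold, and by 0.88 (SE 0.22, adjusted p = 0.00777) in the null. Its genotype differences were 0.26 in THY1+ and -0.24 in KIT+ (adjusted p = 0.490 and 0.580, 95% intervals -0.22 to 0.74 and -0.72 to 0.23).

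The Sox3 set had Rhox13 at 51.2, 71.2 and 53.0 FPKM in WT labelled THY1+ libraries and at 24.2, 31.1 and 26.6 FPKM in cKO KIT+. It was at 23.6, 24.0 and 19.5 FPKM in WT labelled KIT+ and at 17.3, 13.2 and 17.0 FPKM in cKO THY1+. Both cKO groups lay wholly below the WT group with like markers. The order from the highest was WT labelled THY1+, cKO KIT+, WT labelled KIT+ and cKO THY1+, with no overlap between neighbours. Averaged over both fractions Rhox13 fell by 0.80 on the log2 scale (SE 0.11, adjusted p = 0.00251), 1.74-fold, and this remained a call in all 12 fits that each left out 1 library. It fell by 1.09 (SE 0.16, adjusted p = 0.00226) in cKO KIT+ against WT labelled THY1+. The difference was -0.50 (SE 0.16, adjusted p = 0.276) in cKO THY1+ against WT labelled KIT+. As labelled, Rhox13 fell in THY1+ (-1.87, adjusted p = 4.95e-06) and was 0.28 higher in KIT+ (adjusted p = 0.198). In the cKO it was higher in KIT+ than in THY1+ by 0.78 (adjusted p = 0.00340).

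Rhox1, at the far end of the cluster from Rhox13, was the second call in null THY1+ uSPG. It was at 5.83, 4.52 and 4.84 FPKM in WT THY1+ and at 8.56, 7.86 and 7.76 FPKM in null THY1+ uSPG. Rhox1 in KIT+ dSPG was at 3.18, 2.74 and 2.95 FPKM in WT and at 3.40, 2.39 and 3.03 FPKM in the null. The order was null THY1+, WT THY1+ and then both KIT+ groups, which overlapped. Rhox1 rose in null THY1+ uSPG by 0.67 (SE 0.15, adjusted p = 0.0271), 1.59-fold. Its KIT+ less THY1+ difference was -0.75 (adjusted p = 0.00298) in WT and -1.44 (adjusted p = 2.53e-05) in the null. The interaction was -0.68 (SE 0.21, adjusted p = 0.113). The genotype call was close to its limits. It was lost without WT THY1+ replicate 2 (0.59, adjusted p = 0.106), WT THY1+ replicate 3 (0.64, 0.0666), null THY1+ replicate 1 (0.62, 0.117), null THY1+ replicate 2 (0.68, 0.0533) or null THY1+ replicate 3 (0.69, 0.0771), and the pseudocount of 1 took it under 1.5-fold (0.58).

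Rhox1 in the Sox3 set was at 6.47, 4.78 and 6.69 FPKM in WT labelled KIT+ and at 5.11, 5.14 and 5.87 FPKM in cKO THY1+. It was at 2.73, 2.50 and 3.18 FPKM in WT labelled THY1+ and at 1.44, 1.44 and 2.01 FPKM in cKO KIT+. The first pair overlapped, while in the second pair every cKO library was lower. Rhox1 fell in cKO KIT+ against WT labelled THY1+ by 0.76 (SE 0.18, adjusted p = 0.0126), a call that was lost with replicates 2 and 3 alone (-0.70, adjusted p = 0.137) and fell under 1.5-fold with a pseudocount of 1 (-0.54). The difference in cKO THY1+ against WT labelled KIT+ was -0.14 (95% interval -0.53 to 0.26, adjusted p = 0.760). The averaged difference was -0.45 (SE 0.13, adjusted p = 0.0264), 1.36-fold. As labelled, Rhox1 was higher in the cKO in THY1+ (0.92) and lower in KIT+ (-1.82), with adjusted p of 0.00221 and 1.84e-05.

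Rhox5, the androgen-responsive gene, was higher in THY1+ than in KIT+ libraries of the Zbtb16 set. It was at 3.70, 3.44 and 4.02 FPKM in WT THY1+ and at 6.26, 5.49 and 4.91 FPKM in null THY1+ uSPG. Rhox5 in KIT+ dSPG was at 1.26, 1.70 and 1.35 FPKM in WT and at 1.84, 1.60 and 2.80 FPKM in the null. The 3 null THY1+ libraries were above the 3 WT THY1+ libraries, which were above all KIT+ libraries, and the KIT+ groups overlapped. The KIT+ less THY1+ difference of Rhox5 was -1.33 (SE 0.20, adjusted p = 0.000543) in WT and -1.41 (adjusted p = 0.000236) in the null. The genotype differences were 0.56 in THY1+ (95% interval 0.12 to 0.9998, adjusted p = 0.123) and 0.48 in KIT+ (0.04 to 0.92, adjusted p = 0.260), neither a call.

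Rhox5 in the Sox3 set was at 4.16, 6.40 and 3.96 FPKM in WT labelled KIT+ and at 3.51, 2.29 and 3.20 FPKM in cKO THY1+. It was at 1.71, 1.85 and 1.28 FPKM in WT labelled THY1+ and at 1.69, 1.12 and 1.68 FPKM in cKO KIT+. The first pair did not overlap and the second did. The differences were -0.66 (SE 0.25, adjusted p = 0.316) and -0.11 (SE 0.25, adjusted p = 0.792), and the average over both fractions was -0.38 (adjusted p = 0.133). Within the cKO, the KIT+ less THY1+ difference was -0.96 (adjusted p = 0.0139), a call that was lost without cKO THY1+ replicate 1 (-0.84, adjusted p = 0.0547), cKO THY1+ replicate 3 (-0.90, 0.0522) or cKO KIT+ replicate 2 (-0.77, 0.0501). As labelled, the cKO was higher in THY1+ (0.85, adjusted p = 0.0191) and lower in KIT+ (-1.62, adjusted p = 0.000482). The former was lost without WT labelled THY1+ replicate 3 (0.70, adjusted p = 0.0624), cKO THY1+ replicate 1 (0.73, 0.0670) or cKO THY1+ replicate 3 (0.79, 0.0615).

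Rhox8 was low in all libraries. In the Zbtb16 set it was at 1.05, 0.746 and 0.662 FPKM in WT THY1+ and at 0.531, 0.483 and 0.381 FPKM in null THY1+ uSPG, groups that did not overlap. Rhox8 in KIT+ dSPG was at 1.28, 1.35 and 0.956 FPKM in WT and at 1.15, 0.473 and 0.834 FPKM in the null, which overlapped. These values rest on an estimated 14 to 57 reads a library. The genotype differences were -0.69 in THY1+ (95% interval -1.30 to -0.08, adjusted p = 0.165) and -0.55 in KIT+ (-1.16 to 0.06, adjusted p = 0.331), and Rhox8 was no call in any comparison. Without null KIT+ replicate 2, its KIT+ less THY1+ difference in the null became a call (0.95, adjusted p = 0.0142, against 0.64 and 0.0901 with all libraries). In the Sox3 set it ranged from 0.208 to 1.05 FPKM, with an estimated 5 to 15 reads a library, and all groups overlapped. The averaged difference was 0.65 (95% interval -0.06 to 1.37, adjusted p = 0.165).

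Rhox9 was the lowest of the 6 genes. It lay between 0.117 and 0.317 FPKM in the Zbtb16 set, where all 4 groups overlapped, and its differences between null and WT were 0.29 in THY1+ (95% interval -0.25 to 0.84) and -0.13 in KIT+ (-0.67 to 0.41). In the Sox3 set it was at 0.354, 0.207 and 0.220 FPKM in WT labelled KIT+ and at 0.243, 0.142 and 0.2003 FPKM in WT labelled THY1+. In the cKO it was at 0.223, listed at 0 and at 0.138 FPKM in THY1+, and at 0.164, 0.0654 and 0.0980 FPKM in KIT+. All groups overlapped but cKO KIT+ and WT labelled KIT+, where the cKO was lower (-0.79, adjusted p = 0.143). The averaged difference was -0.68 (SE 0.27, adjusted p = 0.0925), no call, but without cKO THY1+ replicate 1 it became a call (-0.85, adjusted p = 0.0380). Reads of Rhox9 may be shared with its near copy Rhox6, since the alignment let a read have up to 50 places.

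The other 13 Rhox entries reached at most 9.34 FPKM in the Zbtb16 set and 4.58 FPKM in the Sox3 set. Rhox2-ps, a pseudogene at 37682921 to 37683431 between Rhox1 and Rhox5, was the 1 call among them in null THY1+ uSPG, where 3.98% of all genes were calls. It was at 2.70 to 4.42 FPKM in WT and at 6.03 to 9.34 FPKM in null THY1+ libraries, with no overlap, and rose by 1.04 (SE 0.24, adjusted p = 0.0297). The median log2 fold change of the 13 was 0.13 there, and -0.40 in null KIT+ dSPG with 0 calls. For the averaged Sox3 difference, 12 of the 13 were lower in the cKO, with a median of -0.42, and 2 were calls, Rhox7a (-1.08, adjusted p = 0.0184) and Rhox7b (-0.67, adjusted p = 0.0425), both below 1 FPKM in every library of that set. Over all genes, 10.3% were calls and 2.83% were calls with lower values. The Rhox2 and Rhox7 entries are close copies of each other, so reads could be split or repeated among them. Their values are uncertain and not independent of each other.

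**Figure D3:**
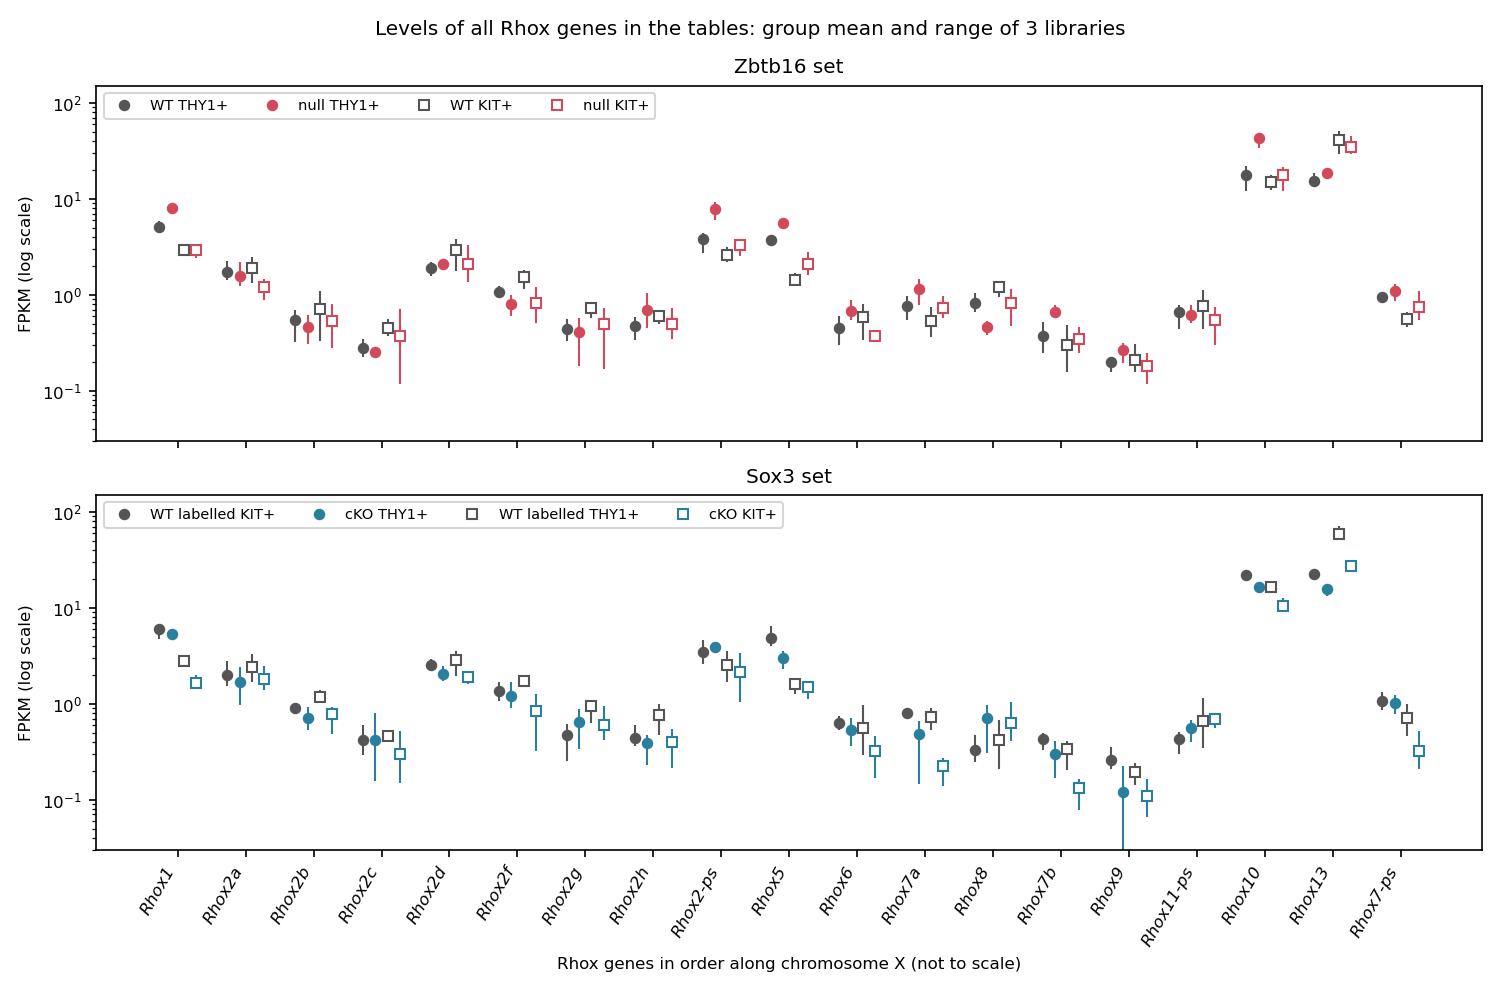
FPKM (log axis) of the 19 Rhox genes and pseudogenes in their order along chromosome X, by group. Symbols are means of 3 libraries and bars run from the lowest to the highest, circles and squares are groups with THY1-like and KIT-like marker levels, and a bar that reaches the lower edge includes a library listed at 0. Rhox10 and Rhox13 stand above the rest of the cluster, and Rhox2-ps is the 1 other entry with a call in null THY1+ uSPG.

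Genes other than Rhox inside the cluster (10 genes) or within 500 kb of its ends (36 genes) were taken as neighbours. The last entry of the cluster is a Rhox7 pseudogene beyond Rhox13, so genes between them count as inside. Of these 46, 27 were tested in the Zbtb16 set, and 0 were calls by limma in null THY1+ uSPG, where 3.98% of all genes were. Their median log2 fold change was 0.10, and 8 had an unadjusted p under 0.05, against 5325 of all genes. Of 24 tested in the Sox3 set, 1 was a call for the averaged difference, Upf3b, which encodes a factor of nonsense-mediated decay and was higher in the cKO (0.60, adjusted p = 0.0162), where 10.3% of all genes were calls. In cKO KIT+ against WT labelled THY1+, 7 of the 24 were calls and all were higher (median 0.35), where 17.0% of all genes were calls and 2638 of 21212 were calls with higher values.

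Marker lists describe which cells the fractions held. Germ cell markers (5 genes, among them Ddx4 and Dazl) summed to medians of 895 to 1314 FPKM in all groups. Sertoli cell markers (10 genes) had medians of 29.5 FPKM in WT THY1+, 18.5 in null THY1+, 52.1 in WT KIT+ and 70.4 in null KIT+ libraries. Leydig cell markers (6 genes) summed to 96.6, 51.9, 1953 and 2871 FPKM in the same groups. Macrophage markers (5 of a list of 6 were present) ran the other way, with medians of 615 FPKM in WT THY1+, 358 in null THY1+, 6.57 in WT KIT+ and 7.89 in null KIT+ libraries. T cell markers (5 genes) had medians of 10.7, 8.82, 2.14 and 1.85 FPKM. Markers of undifferentiated spermatogonia (8 genes) had medians of 174.1, 174.4, 54.1 and 48.7 FPKM, again in the same order of groups. Rhox1 and Rhox5 were higher in the THY1+ libraries along with the macrophage, T cell and undifferentiated spermatogonia sums. The part of these cells in the fraction differences was not tested. In a bulk sample, fewer cells of a type and less RNA per cell cannot be told apart.

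In null THY1+ uSPG, where Rhox10 and Rhox1 rose, all 5 germ cell markers were higher (median log2 fold change 0.32) and all 10 Sertoli markers (-0.56) and all 6 Leydig markers (-0.84) were lower, with 0 calls by limma in these lists. All 5 macrophage markers (-0.76, 1 call, Cd68) and all 7 peritubular and stromal markers (-0.60, 0 calls) were lower too, as were 4 of 5 endothelial markers and 3 of 5 T cell markers. The 8 markers of undifferentiated spermatogonia had a median of 0.00 and 1 call, Eomes, which was lower (-1.15, adjusted p = 0.00858). Over all genes tested, 3.98% were calls in this comparison. The germ cell sum ranged from 928 to 1127 FPKM in WT and from 1074 to 1405 FPKM in the null. Rhox8, which missed the threshold, had a difference of -0.69 beside the lower Sertoli markers. Rhox5, also known from Sertoli cells, went the other way there (0.56, no call). In null KIT+ dSPG, Rhox8 was again lower (-0.55, no call) while the Sertoli sum was higher (70.4 against 52.1 FPKM in WT). The part of these shifts in the Rhox differences was not tested.

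Where Rhox13 fell, the 5 germ cell markers were lower in the cKO averaged over both fractions (median -0.38, 1 call), and 9 of the 10 Sertoli markers were higher (median 0.62, 5 calls). All 6 Leydig markers (4 calls), 7 peritubular and stromal markers (2 calls) and 5 endothelial markers (3 calls) were also higher, while 4 of 5 macrophage markers were higher and 3 of 5 T cell markers lower with 0 calls by limma. Over all 21212 genes tested, 1588 were calls with higher values and 600 were calls with lower values. The germ cell sum ranged from 697 to 943 FPKM in cKO KIT+ and from 1200 to 1279 FPKM in WT labelled THY1+. The differentiating spermatogonia list (6 genes, among them Kit and Stra8) summed to medians of 261 and 385 FPKM in the same groups, and 5 of the 6 were lower in the averaged comparison with 2 calls, Stra8 and Sohlh1. The part of these shifts in the difference of Rhox13 was not tested.

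**Figure D4:**
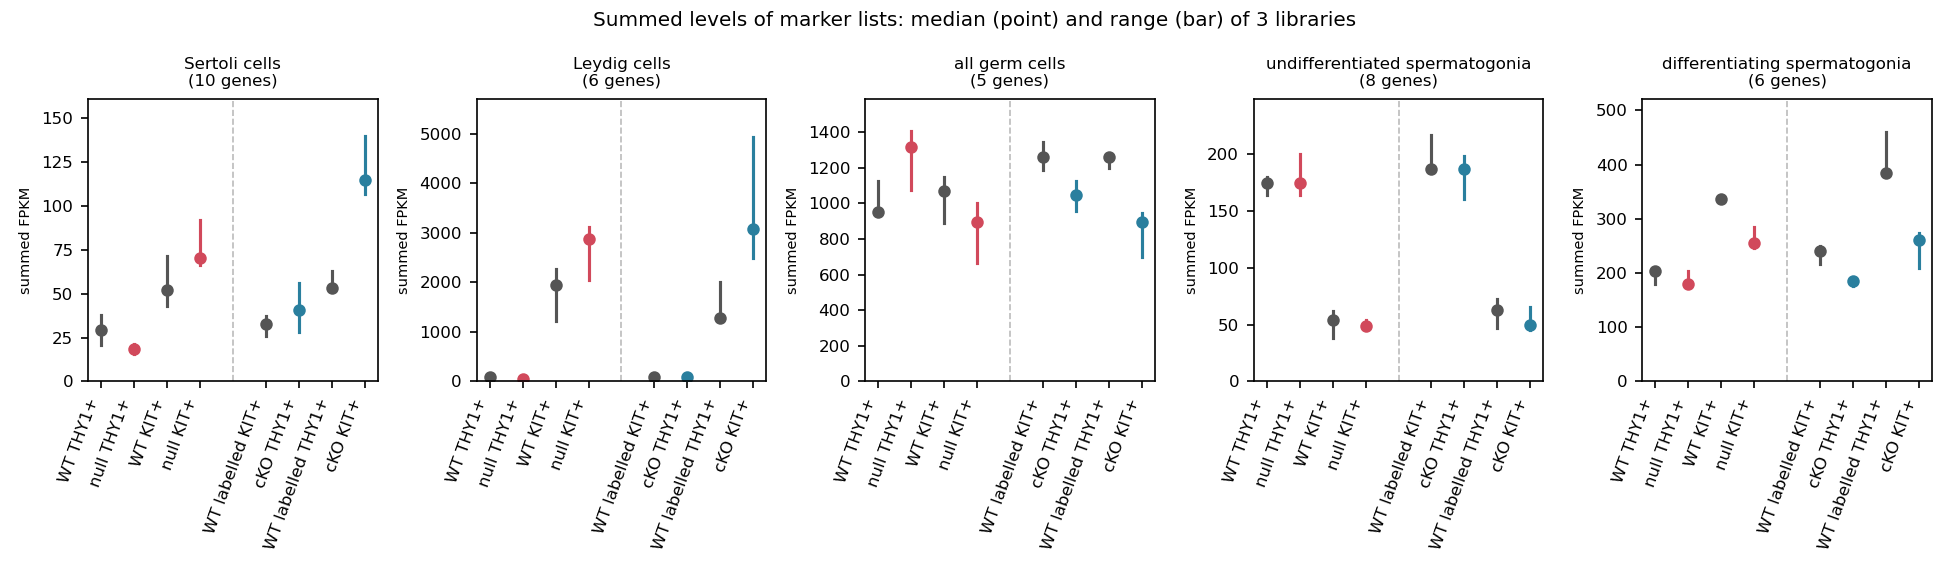
Summed FPKM (linear axes from 0) of 5 marker lists by group, with the Zbtb16 set left of the dashed line and the Sox3 set right. Points are medians of 3 libraries and bars run from the lowest to the highest. Medians of the Leydig and Sertoli sums are higher in the groups with KIT-like marker levels, and germ cell sums stay between 664 and 1405 FPKM.

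The androgen-responsive list was set beside Rhox5. Of its 6 genes (Tubb3, Eppin, Tsx, Drd4, Cldn3 and Serpina5), 5 were lower in null THY1+ uSPG with 1 call, Cldn3 (-1.26, adjusted p = 0.0214), which encodes a claudin of the blood-testis barrier. There, 3.98% of all genes were calls. In WT KIT+ against THY1+ libraries, 2 were calls and both were higher, Drd4 (1.42, adjusted p = 0.00380) and Serpina5 (3.16), a serine protease inhibitor at 28.7 FPKM in WT KIT+ libraries. Between these fractions, 21.2% of all genes were calls. Of the genes linked to RHOX factors (Dmrt1, Unc5c, Gata4 and Zbtb16), only the mutated Zbtb16 was a call in null THY1+ uSPG. Dmrt1, a regulator of germ cell and Sertoli cell fate, was at 110.1 FPKM in WT and 118.7 FPKM in null THY1+ uSPG (0.10, adjusted p = 0.543). Unc5c, a netrin receptor gene known as a target of RHOX5, averaged 0.293 FPKM in WT THY1+ and 0.159 FPKM in WT KIT+ libraries (-0.60, adjusted p = 0.0279). In the averaged Sox3 comparison, Gata4, a factor of testis somatic cells, was a call and higher (0.73, adjusted p = 0.00703), and Dmrt1 was lower by less than 1.5-fold (-0.45, adjusted p = 0.0204).

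The 4 genes above 1 FPKM had different closest companions. Likeness was the lower of the Pearson correlations of log2(FPKM + 0.1) over the 12 libraries of each table, among 15870 genes, and the libraries share fractions and genotypes, so these values describe the patterns only. Closest to Rhox1 was Plekhd1 (0.972 in the Zbtb16 set, 0.971 in the Sox3 set), followed by Morc1, a silencer of transposons in male germ cells, and Myt1l. Closest to Rhox5 were Serp2 (0.948 and 0.974), Sdcbp2 and Tspan8, a tetraspanin. Closest to Rhox10 were Gm4419 (0.970 and 0.957), Cend1 and Cela2a, and closest to Rhox13 were Crabp1, a retinoic acid binding protein (0.983 and 0.977), 1700013H16Rik and Dnajc9. Among the members themselves, Rhox1 and Rhox5 were the most alike (0.917 and 0.797), and Rhox13 ran against Rhox5 (-0.842 and -0.520).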

How the data were processed

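Per the methods, the authors depleted ribosomal RNA, made stranded single-read libraries, aligned the reads to mm10 with Novoalign (up to 50 placements a read) and computed FPKM with USeq. Each set has a deposited table of FPKM made by the authors. The study's own DESeq2 results were not used. Because FPKM are not counts, log2(FPKM + 0.1) was fitted here with limma 3.58.1 (R 4.3.3; lmFit, eBayes with trend and robust), with 4 group means per table, on genes with a mean of at least 0.1 FPKM (22374 and 21212 genes). Tests were two-sided, with Benjamini-Hochberg adjustment over all genes tested. The added 0.1 understates changes of low genes. Read numbers were estimated from the smallest steps of low FPKM, of which 82.8% to 86.5% were whole within 0.1, so no count test was run. Positions and lengths came from GENCODE M21. Libraries were grouped by their labels alone. The fit was tested on simulated data. Alternatives were other pseudocounts (1 and 0.01), other filters, scaling to equal medians, a replicate block, fits on the compared groups only, replicates 2 and 3 alone in the Sox3 set, and leaving out each library. Members, gene lists and tests were chosen with earlier results of these data known. Named genes are the members, the targeted genes and sorting markers, the fixed lists, calls among other Rhox genes and neighbours, and the 3 most similar genes per member. A gene of these lists is not reported here. Genes singled out of the lists were picked after their values were seen.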

Additional observations from a re-analysis of the deposited data

Results flagged for a closer look

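Several Rhox genes moved in opposite directions between groups of the Sox3 set when the labels were followed, with no overlap of libraries on either side. The share of all genes that do so was not counted, so this is not shown to be particular to Rhox genes. As labelled, 29.1% (THY1+) and 25.1% (KIT+) of all genes were calls between genotypes. Between fractions, 22.7% (cKO) and 19.7% (WT) were calls. The change of cKO against WT in KIT+ less that in THY1+ was -2.73 on the log2 scale for Rhox1, -2.47 for Rhox5 and 2.16 for Rhox13. For Rhox10 the KIT+ against THY1+ difference in the cKO less that in WT was -1.09, and for Rhox1, Rhox5 and Rhox13 this second form gives the same values as the first. In each case every library of one pair of groups moved one way and every library of the other pair the opposite way, and the differences themselves were not tested. The WT libraries of this set carry sorting marker, macrophage and Leydig cell marker levels that go against their labels, so these values compare libraries with unlike markers.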

How the results depend on the processing

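Counts of member calls stayed within 1.5 times the values given above in 159 refits and moved further in 14. In null against WT THY1+ uSPG (2 calls), a pseudocount of 1 gave 1 call, and leaving out 1 library gave 0 to 1. Calls over all genes fell with them, from 890 to 565 with that pseudocount and to between 296 and 824 without 1 THY1+ library (468 with a filter at a mean of 1 FPKM, 1980 with a replicate block). For the averaged Sox3 difference (1 call), scaling to equal medians gave 2, adding Rhox10 (-0.62), and leaving out 1 library gave 1 to 2, adding Rhox10 or Rhox9. For cKO KIT+ against WT labelled THY1+ (3 calls), replicates 2 and 3 alone gave 1, without Rhox1 (-0.70) and Rhox10 (-0.59), while calls over all genes fell from 3608 to 987. Equal medians moved member differences by at most 0.149 (the interaction). Calls of single genes also changed for Rhox1 in cKO KIT+ against WT labelled THY1+ with a pseudocount of 1 (-0.54, under 1.5-fold) and Rhox8 in null KIT+ against THY1+ without null KIT+ replicate 2 (0.95, a call). With a filter at a mean of 1 FPKM, Rhox8 and Rhox9 were not tested. The cause was not tested.

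Deviations of same-numbered libraries from their group means correlated at -0.0278 to 0.520 across genes in the Zbtb16 set and -0.119 to 0.348 in the Sox3 set (18 pairs each). Their means were 0.326 and 0.147, and those for libraries of different numbers were -0.164 and -0.0728. Deviations cancel out within a group, so the different-number means largely follow from the same-number means and are no separate comparison. For 11 of 12 and 9 of 12 libraries, the mean correlation with the other groups was highest for their own number. This is a hint from the data and not from the design. Since not every pair was above 0.1 and the labels name no shared batch, the numbers were not taken to pair the samples. With a replicate block the interaction gave 2 calls, Rhox1 (adjusted p = 0.0192) and Rhox10 (0.00917), against 0 without it, while calls over all genes went from 7 to 2756 of 22374. The averaged Sox3 difference gave 2, adding Rhox9 (0.0273), with 2457 against 2188 calls over all genes. Rhox9 labelled KIT+ (0.0469) and Rhox8 in null KIT+ against THY1+ (0.0423) also became calls, and no other member call changed with the block.

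Differences near 0 changed sign. With a pseudocount of 1, Rhox9 in cKO KIT+ against THY1+ was -0.011, and with replicates 2 and 3 alone Rhox10 labelled THY1+ was 0.079. Leaving out 1 library gave -0.13 to 0.12 (Rhox1) and -0.30 to 0.083 (Rhox9) for null KIT+, -0.31 to 0.078 (Rhox5) and -0.12 to 0.44 (Rhox8) for the interaction, and -0.19 to 0.14 (Rhox9) for WT KIT+ against THY1+. In the Sox3 set it gave -0.072 to 0.077 for Rhox10 labelled THY1+, -0.26 to 0.077 for Rhox5 in cKO KIT+ against WT labelled THY1+, -0.51 to 0.15 for Rhox8 between WT fractions, and -0.56 to 0.14 (Rhox8) and -0.43 to 0.41 (Rhox9) between cKO fractions. Rhox8 and Rhox9 had the fewest reads of the 6 genes.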
